A study of Mus musculus with 96 samples.

Results

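Cartilage matrix genes are described here across 16 tissues of wild-type (WT) and *Scx*-/- mice. The set holds 10 genes, taken by symbol from the 41575 gene rows of the count table: *Col2a1*, *Col9a1*, *Col9a2*, *Col9a3*, *Col10a1*, *Col11a1*, *Col11a2*, *Acan*, *Matn1*, and *Comp*. All 10 have a row. Of these, 8 had counts, and *Col11a2* and *Matn1* were listed at 0 in every library.

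RNA from whole frozen tissues was sequenced as 96 barcoded samples, called libraries here, 3 for each tissue and genotype, from mice aged 3 weeks. The paper states that the barcoded samples were pooled before the sequencing library was made. The labels do not give which samples shared a pool. Whether very low counts include reads from other samples of a pool was not tested. The WT mice carry *Scx*, the gene of the tendon transcription factor scleraxis, and the *Scx*-/- mice are labelled as lacking it on both alleles, with no strain given in the labels. The labels give no sex, no anatomical site for the cartilage, bone, and muscle, and no mouse of origin, so p-values measure the spread between these samples, which may be partly technical. Levels are given as CPM, the count of a gene divided by the library total and scaled to 1000000.

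The cartilage matrix is built on thin fibrils of type II collagen with type XI collagen inside them and type IX collagen on their surface. Aggrecan, a large proteoglycan, fills the space between the fibrils and holds water, and glycoproteins such as the matrilins and COMP connect the parts. Type X collagen marks the hypertrophic chondrocytes of the growth plate, where cartilage is replaced by bone, so in young mice these genes are known from bones as well as from cartilage.

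Library totals ran from 11244 to 1658192 counts. The 6 cartilage libraries held 205359 to 276018 counts, and the bone libraries were shallower and more uneven, at 42272 to 240564. The muscle library of WT replicate 1 had 30409 counts, against 474118 to 871531 in the other muscle libraries. *Scx* had counts in 12 of 48 WT libraries and in 1 of 48 *Scx*-/- libraries. In cartilage it had 0, 7, and 1 counts in the WT libraries and 9, 0, and 0 in the libraries labelled *Scx*-/- replicates 1, 2, and 3. The library labelled *Scx*-/- replicate 1 of cartilage thus had the highest *Scx* level of the 6, at 37.2 CPM, which goes against its label. Which part of the gene the allele lacks was not given in the labels. The label of this library is therefore in doubt. The main edgeR tests of the members that use cartilage are given below with it and without it. Pooled shares, fold bounds, likeness, and levels of the other gene lists are given with it only. Of the 6 genes used to check the cartilage label, *Matn1* was at 0 and *Col2a1*, *Col9a1*, *Acan*, *Hapln1*, and *Sox9* were detected there. Skeletal muscle markers took 13.3% to 17.0% of the counts of the cartilage libraries and 2.86% to 10.2% of the bone libraries, against 26.7% to 31.2% in muscle, and the 10 markers all had counts in cartilage. With these markers taken out of the library total, the share of the set was 1.16% ± 0.749 in cartilage and 0.924% ± 0.162 in bone (SD), against 0.986% and 0.865% with them. Their part in the other results was not tested. In bulk tissue, fewer cells of a type and less RNA per cell cannot be told apart.

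The 2 genes without counts were *Col11a2*, which encodes a further chain of type XI collagen, and *Matn1*, which encodes the cartilage glycoprotein matrilin 1. *Col11a2* lies at chr17:34039437-34066685 (mm10, plus strand), and 19 of the 20 nearest protein-coding genes with a row were also at 0. It stood inside a run of 36 such genes, from *Ring1* to *Tnxb*, which also held the chromatin reader *Brd2*. *Matn1* lies at chr4:130944385-130955475 (plus strand), with 9 of its 20 neighbours at 0, and ended a run of 6 such genes. Over all protein-coding genes with a row, 22.0% were at 0 in every library, and for the other 8 cartilage genes 1 to 8 of 20 neighbours were. Since a gene used by nearly every cell was at 0 beside *Col11a2*, and both stood in such runs, nothing is said of the expression of *Col11a2* and *Matn1*. *Brd2* was picked after its values were seen.

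**Figure D1:**
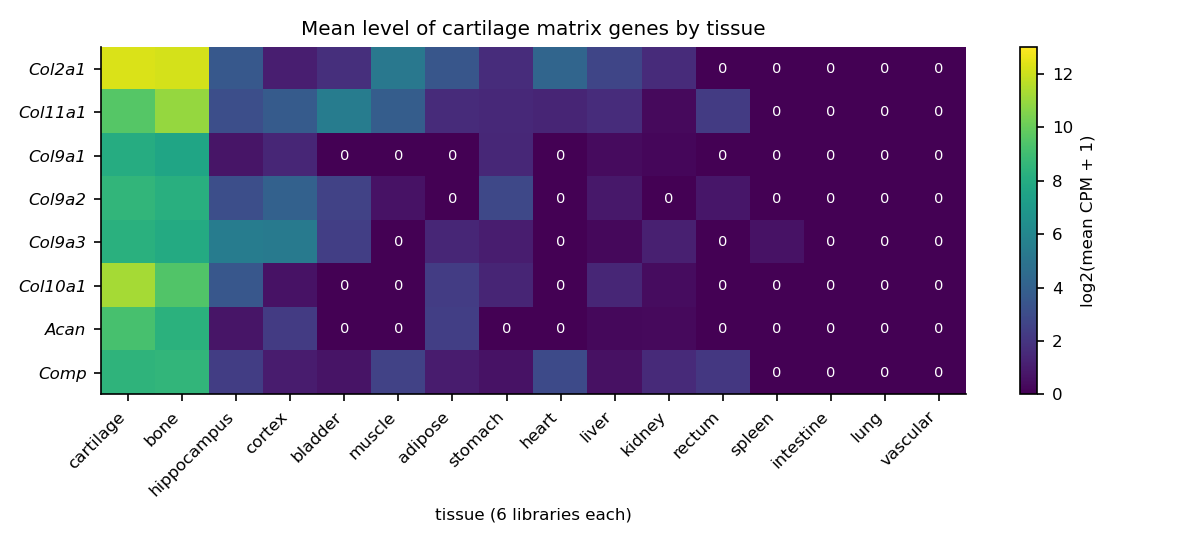
Mean level of the 8 genes with counts in each of the 16 tissues, on a colour scale of log2(mean CPM + 1) over 6 libraries, with 0 written where all 6 had none. Cartilage and bone stand apart in every row, and lung, intestine, and vascular samples were at 0 throughout.

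The fibril-forming collagens came first. *Col2a1* (chr15:97975602-98004695, minus strand) encodes the chain of type II collagen, the main collagen of cartilage. In cartilage its level was 4013, 5943, and 3710 CPM in the WT libraries and 10240, 3750, and 1369 CPM in the libraries labelled *Scx*-/-, the first being the library that held *Scx* counts. In bone it was 6302, 3179, and 5686 CPM in WT and 5283, 3806, and 2886 CPM in *Scx*-/-. Both tissues were thus alike in level, at 4838 ± 3020 CPM in cartilage and 4524 ± 1421 CPM in bone (SD, n = 6), and their ranges overlapped. Without the doubtful library the cartilage mean was 3757 ± 1624 CPM (SD, n = 5). Together they held 99.2% of all *Col2a1* counts. The highest library elsewhere was WT replicate 1 of muscle at 197 CPM, which rests on 6 counts.

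*Col11a1* (chr3:114030540-114220718, plus strand) encodes a chain of type XI collagen, which sits in the core of the type II fibrils and also forms fibrils with other collagens outside cartilage. It was the only member whose bone and cartilage libraries did not overlap, a pattern shared by 1.39% of the 14858 genes tested between these tissues. In bone its level was 1890, 2694, and 2461 CPM in WT and 1430, 1674, and 1727 CPM in *Scx*-/-. In cartilage it was 574, 871, and 903 CPM in WT and 1414, 541, and 275 CPM in *Scx*-/-. The lowest bone library and the highest cartilage library, both labelled *Scx*-/- replicate 1, were close together, at 1430 and 1414 CPM, and without the cartilage one the highest cartilage library was at 903 CPM. Outside these tissues *Col11a1* was highest in bladder, where all 6 libraries had counts and the level was 16.01 to 109 CPM, with the highest value in WT replicate 1.

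The 3 genes of type IX collagen, which decorates the fibril surface, encode its 3 different chains. *Col9a1* (chr1:24177610-24252684, plus strand) was at 50.7 to 715 CPM in cartilage, with a median of 211 CPM. Without the cartilage library labelled *Scx*-/- replicate 1 it was at 50.7 to 238 CPM, and its mean went from 260.6 to 169.7 CPM, beside 199.5 CPM in bone. In bone it was at 0 in WT replicate 3 and *Scx*-/- replicate 3, the 2 shallowest bone libraries, and at 245 to 418 CPM in the other 4. *Col9a2* (chr4:121039385-121055322, plus strand) was at 58.0 to 649 CPM in cartilage, or 58.0 to 491 CPM without the same library, and 16.7 to 520 CPM in bone. *Col9a3* (chr2:180597790-180622189, plus strand) ran from 19.5 to 693 CPM in cartilage, the widest spread of the set at 35.6-fold, and from 64.4 to 374 CPM in bone. All 3 overlapped between the tissues.

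*Col9a3* and *Col9a2* were also the members with most counts in the brain. In cortex, the level of *Col9a3* was 33.2, 56.0, and 19.5 CPM in WT and 44.0, 32.7, and 50.2 CPM in *Scx*-/-, and in hippocampus it was 8.43, 81.2, and 28.0 CPM in WT and 80.7, 11.7, and 47.0 CPM in *Scx*-/-. All 12 brain libraries thus had counts, with the genotypes overlapping. For this gene only 63.4% of the counts lay in bone and cartilage. That share depends on depth, as cortex held 6324607 counts in all, against 629368 in bone and 1464828 in cartilage. *Col9a3* overlaps *Tcfl5* on the other strand, and without the strand setting of the counting, reads of the pair cannot be told apart. *Col9a2* was at 0.909 to 44.4 CPM in cortex, and in hippocampus 2 of 6 libraries had counts. *Col9a1*, the other type IX chain, had 14 counts over the 6 cortex libraries and 2 in hippocampus.

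*Col10a1* (chr10:34389981-34397085, plus strand), the marker of hypertrophic chondrocytes, reached 3241, 2443, and 1262 CPM in WT cartilage and 5661, 1480, and 254 CPM in *Scx*-/- cartilage. In bone it was 1404, 335, and 148 CPM in WT and 856, 620, and 923 CPM in *Scx*-/-. The mean was higher in cartilage, at 2390 ± 1902 CPM against 714 ± 450.0 CPM (SD, n = 6), and 1736 ± 1146 CPM in cartilage without the library labelled *Scx*-/- replicate 1 (n = 5), but the ranges overlapped, with *Scx*-/- replicate 3 of cartilage below 5 of 6 bone libraries and WT replicate 3 of cartilage below WT replicate 1 of bone. Bone and cartilage held 99.2% of its counts. It overlaps *Nt5dc1* on the other strand, and the same limit on strand applies.

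*Acan* (chr7:79053483-79115099, plus strand) encodes aggrecan. Its level in cartilage was 858, 508, and 406 CPM in WT and 1265, 351, and 123 CPM in *Scx*-/-. In bone it was the steadiest of the set, at 373, 301, and 382 CPM in WT and 241, 290, and 284 CPM in *Scx*-/-, a 1.58-fold range over 6 libraries. *Comp* (chr8:70373558-70382066, plus strand) encodes a pentameric glycoprotein that binds collagens and is known from tendon as well as cartilage. It was at 166 to 581 CPM in cartilage and 42.4 to 757 CPM in bone, and in heart it held 14 of the 22 counts of the set.

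The stretches before the start sites of *Col10a1*, *Acan*, and *Col11a1* are shown because these genes had the largest differences between cartilage and bone. RefSeq promoters matched 7 of the 10 members (GRCm38.p6); *Col2a1*, *Col9a3*, and *Comp* were not matched. Each line gives the 250 bases before the start site on the plus strand. Capitals mark matches, on either strand, to ACAAAG or AACAAT (core motifs of SOX factors), CANNTG (the E-box bound by basic helix-loop-helix factors such as SCX), and TATAAA (the TATA box).
Col10a1, chr10:34389731-34389980: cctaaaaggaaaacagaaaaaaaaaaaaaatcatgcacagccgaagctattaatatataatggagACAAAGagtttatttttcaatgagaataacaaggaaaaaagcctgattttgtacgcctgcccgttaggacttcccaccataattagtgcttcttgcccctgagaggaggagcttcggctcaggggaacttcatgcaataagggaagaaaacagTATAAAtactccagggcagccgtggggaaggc
Acan, chr7:79052976-79053225: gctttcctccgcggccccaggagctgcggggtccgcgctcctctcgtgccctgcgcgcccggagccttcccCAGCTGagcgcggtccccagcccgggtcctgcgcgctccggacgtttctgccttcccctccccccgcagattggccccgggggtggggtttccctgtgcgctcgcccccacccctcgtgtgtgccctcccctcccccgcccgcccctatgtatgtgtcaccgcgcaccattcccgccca
Col11a1, chr3:114030290-114030539: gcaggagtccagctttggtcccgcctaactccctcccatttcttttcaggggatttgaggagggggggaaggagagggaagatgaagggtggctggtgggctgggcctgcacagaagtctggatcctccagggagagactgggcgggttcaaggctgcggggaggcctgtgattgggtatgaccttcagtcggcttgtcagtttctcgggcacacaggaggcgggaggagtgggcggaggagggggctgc
*Col10a1* had an ACAAAG beginning 185 bases before the start and a TATAAA beginning 32 bases before it, and 41.6% of its bases were G or C. *Acan* had an E-box and 74.4% G or C, and *Col11a1* had none of the 4 motifs and 62.4% G or C. Over all 32851 RefSeq promoters, 16.5% held ACAAAG, 9.42% AACAAT, 66.2% CANNTG, and 12.4% TATAAA in the same window, and the median G and C content was 52.4%. Of the 8 member promoters, *Col9a1* having 2, these motifs were in 1, 0, 5, and 2.

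In 6 members the mean was highest in cartilage, and in *Col11a1* and *Comp* it was highest in bone. With TMM factors or DESeq2 size factors in place of library totals, only *Col11a1* was highest in bone. Without the cartilage library labelled *Scx*-/- replicate 1, the mean was highest in cartilage in 3 members, *Col9a2*, *Col10a1*, and *Acan*, and highest in bone in 5. With medians in place of means, 3 members were highest in cartilage and 5 in bone. The next tissue was far below in each case: apart from *Col9a1*, *Col9a2*, and *Col9a3*, no library of another tissue reached the lowest bone or cartilage library of the same gene. All 8 members had counts in cortex, hippocampus, and liver, at low levels, and 4 of them in muscle. Over the 6 libraries of lung, intestine, and vascular samples, 0 counts allow a level of up to 3.34, 4.17, and 2.87 CPM for each member (3 counts of the summed total, counting error only). The study left its vascular samples out of later steps as contaminated, so their label is a limit on that value. Spleen had 1 count in all.

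**Figure D2:**
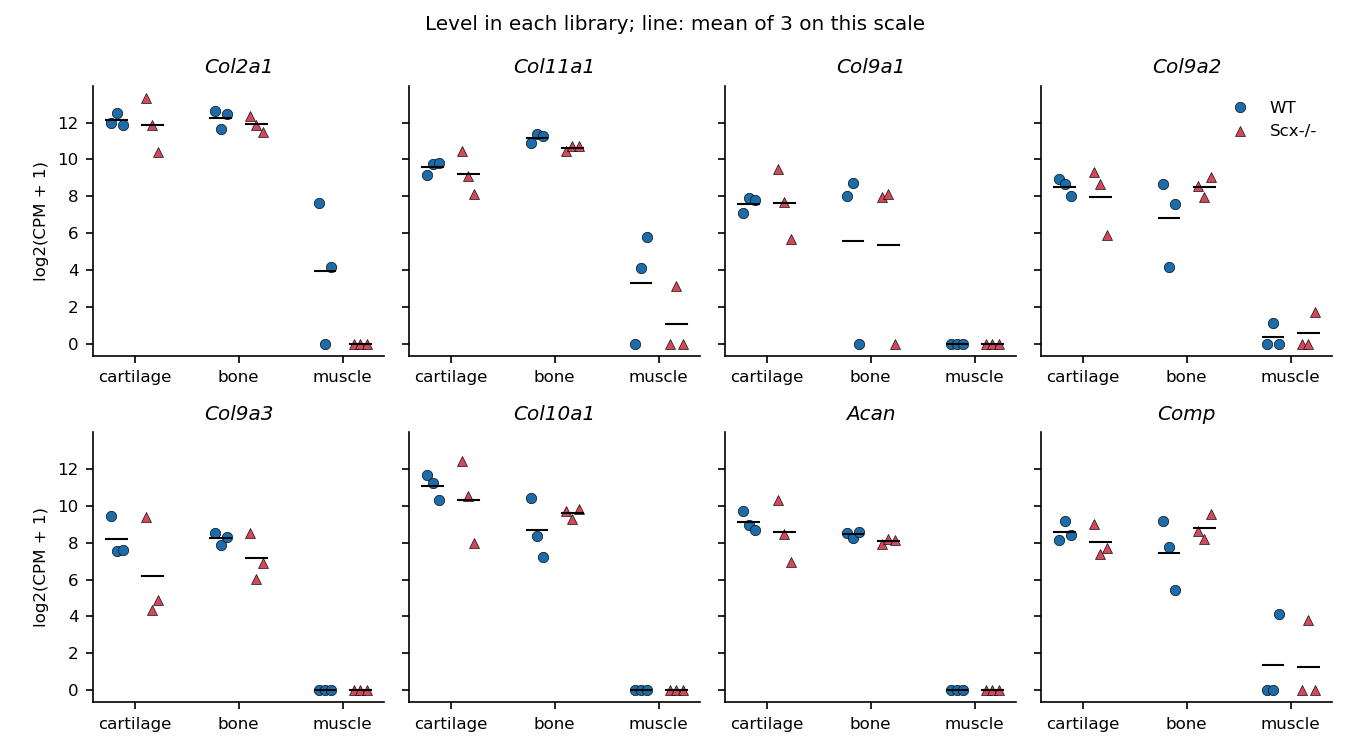
Level of each gene, as log2(CPM + 1), in the 3 WT (circles) and 3 *Scx*-/- libraries (triangles) of cartilage, bone, and muscle; lines are means of 3 on this scale. In cartilage the *Scx*-/- triangles spread more widely than the WT circles for most genes, and in muscle *Col9a1*, *Col9a3*, *Col10a1*, and *Acan* were at 0 in all 6 libraries.

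The members made up 0.986% ± 0.633 of the counts in cartilage and 0.865% ± 0.172 in bone (SD, n = 6), and 0.761% ± 0.346 in cartilage without the library labelled *Scx*-/- replicate 1 (n = 5). *Col2a1* took 49.2% of the set in cartilage and 54.2% in bone, with libraries pooled. *Col10a1* took 24.0% in cartilage (95% exact Clopper-Pearson interval 23.2 to 24.7) and 9.07% in bone (8.33 to 9.85), and *Col11a1* took 7.88% (7.44 to 8.33) and 19.9% (18.8 to 21.0). *Acan* took 5.89% (5.51 to 6.29) and 3.28% (2.83 to 3.78). These intervals cover counting error only. The pooled cartilage shares include the library labelled *Scx*-/- replicate 1, which held 5111 of the 14208 counts, and were not computed without it. By library, *Col11a1* (5.58% to 12.4% in cartilage, 15.6% to 36.4% in bone) and *Acan* (4.54% to 8.34% and 2.62% to 4.14%) did not overlap, while *Col10a1* (10.7% to 31.5% and 1.61% to 12.8%) and *Col2a1* did. The ratio of *Col11a1* to *Col2a1* counts, which does not depend on the library total, was 0.271 to 0.847 in the bone libraries and 0.138 to 0.243 in the cartilage libraries, with no overlap. Of 7 such ratios to *Col2a1* it was the only one without overlap, and as it was noticed in the values, it is a description. In brain the make-up was another one: *Col9a3* took 49.6% of the set in cortex and 52.4% in hippocampus, and *Col2a1* took 1.59% and 5.44%.

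**Figure D3:**
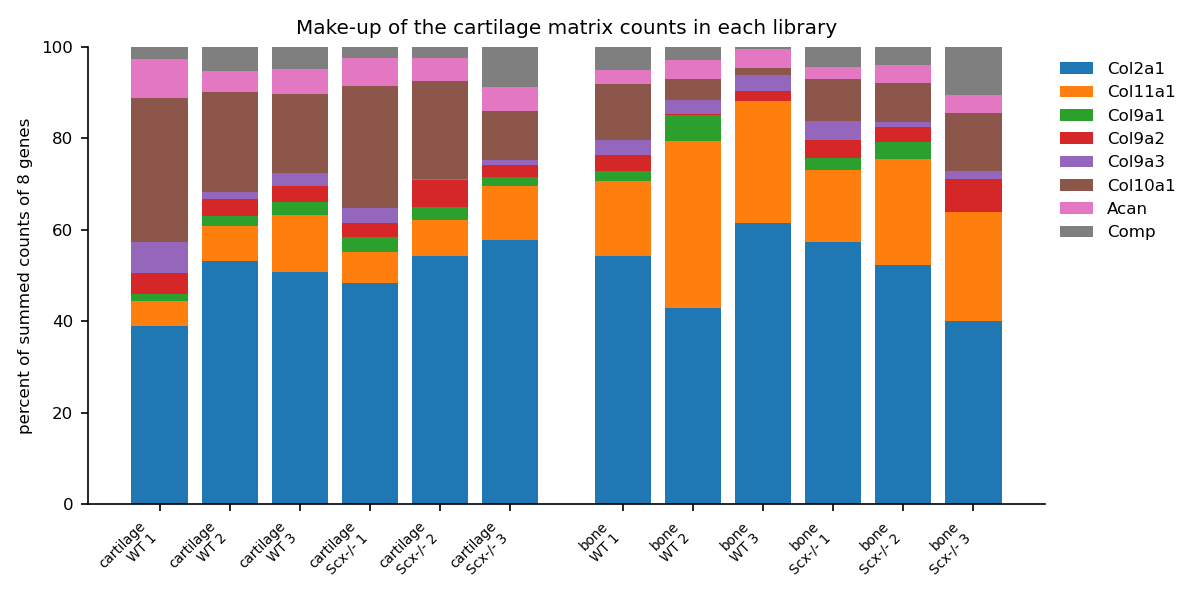
Share of each gene in the summed counts of the 8 genes, in percent, for the 6 cartilage and 6 bone libraries. The *Col11a1* part was wider in bone, and the *Col10a1* part was wider in most cartilage libraries.

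Whether cartilage and bone differ was tested with edgeR's quasi-likelihood test over 14858 genes, with genotype as a term. No member passed an adjusted p of 0.05, while 1.2% of all genes did, and 3 of 8 members had an unadjusted p under 0.05, as 11% of all genes did. *Col11a1* was lower in cartilage by a log2 difference of -0.98 (SE 0.33, edgeR adjusted p = 0.154). *Acan* was higher by 1.27 (SE 0.46, adjusted p = 0.192), and *Col10a1* was higher by 2.05 (SE 0.68, adjusted p = 0.256). The other 5 members had log2 differences of 0.26 to 0.73, and the median of the 8 was 0.59 beside 0.38 over all genes. These calls depend on the scaling, which moved the median of all genes from 0.38 with TMM factors to 0.05 with RLE factors: with RLE factors *Col11a1* (log2 difference -1.39, adjusted p = 0.00826) and *Col10a1* (1.71, adjusted p = 0.0028) passed, and *Comp* turned from 0.26 to -0.11. Relative to these medians *Comp* lay below the typical gene under both. Without the cartilage library labelled *Scx*-/- replicate 1, edgeR called *Col11a1* lower (-1.38, adjusted p = 0.0254) and *Col10a1* higher (1.43, adjusted p = 0.0276), beside 0.898% of all genes. In that fit the median of the 8 was 0.02, and *Col2a1* (-0.05), *Col9a1* (-0.03), and *Col9a3* (-0.66) changed sign with no call. Without *Scx*-/- replicate 3 of cartilage, edgeR called *Col10a1*. Osteoblast and osteocyte markers took 0.730% to 3.83% of the cartilage libraries and 4.06% to 5.99% of the bone libraries, with 10 of 10 markers detected in both. Tenocyte markers took 0.570% to 2.70% and 3.78% to 5.97%, with 7 of 8 and 8 of 8 detected. The part of both lists in these differences was not tested.

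Against muscle, the 8 members with counts were called higher in both tissues at an adjusted p under 0.05. In cartilage over muscle, 1.09% of 15938 genes passed as higher. In muscle 4 members had counts and 4 were at 0 in all 6 libraries. The latter entered the fit only through their cartilage or bone counts, so their calls add nothing beyond being at 0 in muscle, and their fitted differences are not given. Of those with counts in muscle, the log2 differences in cartilage were 5.46 for *Comp* (SE 0.63, edgeR adjusted p = 2.58e-15), 5.70 for *Col11a1* (SE 0.53), 8.05 for *Col9a2* (SE 0.74, on 3 muscle counts), and 9.44 for *Col2a1* (SE 1.57, adjusted p = 0.0169), the weakest call. Without the cartilage library labelled *Scx*-/- replicate 1, the 8 members were again called higher (*Col2a1* 8.90, adjusted p = 0.0216), as 0.99% of all genes were. In bone over muscle, 1.77% of 15643 genes passed as higher, and these 4 members had log2 differences of 5.15 to 8.91. The median of all genes was -0.19 in cartilage over muscle and -0.66 in bone over muscle. The libraries of cartilage lay above those of muscle in all 8 members (1.38% of all genes did not overlap) and those of bone in 7 (2.33%), with *Col9a1* overlapping at 0. Where muscle was at 0, summed counts give lower bounds: cartilage was at least 2987-fold higher in *Col10a1*, 735-fold in *Acan*, 373-fold in *Col9a3*, and 332-fold in *Col9a1*, and bone at least 1044-fold, 378-fold, 358-fold, and 302-fold (floor of 3 counts over the 6 muscle libraries). In summed counts, *Col11a1* was 64.1-fold higher in cartilage and 149-fold higher in bone than in muscle. These cartilage bounds and folds include the library labelled *Scx*-/- replicate 1, which lay above the pooled cartilage level in each of these genes. They were not computed without it and would be lower. The *Col10a1* call against muscle in cartilage was lost with RLE factors (adjusted p = 0.0636), with library totals (0.0598), and without WT replicate 1 of muscle (0.084), and the *Col2a1* call was lost without any 1 of the 3 *Scx*-/- muscle libraries (highest adjusted p = 0.0647).

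Genes that act on or with this matrix were compared in the same fits, counted by lists. Of 18 other cartilage matrix genes tested, edgeR called 14 higher in cartilage than in muscle and 0 lower. Of the 14, 7 were at 0 in muscle and entered the fit only through cartilage, among them *Lect1*, the symbol in the table for chondromodulin, at least 445-fold higher in cartilage by the same floor. The 7 with muscle counts included the aggrecan-linking protein *Hapln1* (log2 difference 7.68, adjusted p = 7.91e-27) and *Cytl1* (5.69, adjusted p = 6.79e-28). The most abundant of this list in cartilage were *Cytl1* at 815 ± 698 CPM, *Hapln1* at 466 ± 333 CPM, and *Chad* at 384 ± 304 CPM. Between cartilage and bone 1 gene was called, the lubricin gene *Prg4*, which was lower in cartilage (-2.31, adjusted p = 0.00747; 80.6 ± 49.8 CPM against 532 ± 143 CPM). The count higher in cartilage than in muscle was 11 of 18 without the cartilage library labelled *Scx*-/- replicate 1, and *Prg4* was again called lower than in bone.

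Among 12 chondrocyte regulators tested between cartilage and muscle, 3 were called higher in cartilage. They were *Sox9*, the transcription factor that turns on the cartilage collagens (4.12, adjusted p = 1e-06), *Runx2* (6.30, adjusted p = 0.00359, on 1 muscle count), and *Wwp2* (2.41, adjusted p = 0.0222). *Sox9* was at 197 ± 154 CPM in cartilage and 37.9 ± 43.3 CPM in bone, and its partner *Sox5* was listed at 0 in every library. The most abundant regulators in cartilage were *Mef2c* at 388 ± 73.8 CPM, *Sox9*, and *Wwp2* at 156 ± 106 CPM. *Pth1r*, the receptor for parathyroid hormone and its related peptide, was lower in cartilage than in bone (-1.98, adjusted p = 0.0307). *Sox9*, *Runx2*, and *Pth1r* were called again without the cartilage library labelled *Scx*-/- replicate 1, and *Wwp2* was not (adjusted p = 0.114).

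Of 9 genes of matrix turnover, 3 were called higher in cartilage than in muscle, of which *Mmp9* and *Mmp13* were at 0 in muscle, and 2 were lower in cartilage than in bone: the collagenase *Mmp13* (-1.73, adjusted p = 0.0322) and the gelatinase *Mmp9* (-1.66, adjusted p = 0.00544). The *Mmp13* call against bone was lost without the cartilage library labelled *Scx*-/- replicate 1 (adjusted p = 0.0568), and the *Mmp9* call and the 3 calls against muscle were not. *Mmp9* and *Mmp14*, at 299 ± 101 CPM and 293 ± 95.1 CPM, led this list in cartilage, followed by *Timp3* at 193 ± 120 CPM. Of 17 genes that build and sulphate the glycosaminoglycan chains of aggrecan, *Papss2*, which makes the sulphate donor, was the only one called higher in cartilage than in muscle (3.43, edgeR adjusted p = 2.47e-05), and edgeR called none between cartilage and bone, where 2 of 17 met the study's thresholds (unadjusted p under 0.05 and an absolute log2 fold change over 1) beside 10.8% of all genes. The *Papss2* call was kept without the cartilage library labelled *Scx*-/- replicate 1. *Papss2* was at 201 ± 141 CPM in cartilage, ahead of *Chst11* at 77.3 ± 65.8 CPM and *Csgalnact2* at 75.6 ± 35.5 CPM.

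The study asked what the loss of *Scx* changes in each tissue. For these genes, edgeR called no member between genotypes at an adjusted p under 0.05 in any of the 13 tissues with a member to test, or in 0 of 76 pairs of member and tissue, with all libraries as labelled. At an unadjusted p under 0.05 there were 3 pairs with edgeR, beside 4.06% of all tests, and 0 with DESeq2. Over the same tissues 0.108% of all tests of a gene in a tissue were called, and the share was 0.0222% in cartilage, 0% in bone, and 0.0482% in muscle. In cartilage the log2 differences of *Scx*-/- over WT were -0.55 to 0.78, with a median of 0.01 beside 0.07 over all genes. *Col2a1* differed by 0.24 (SE 0.80), *Acan* by 0.02 (SE 0.43), and *Col10a1* by 0.15 (SE 1.23), so that the error of *Col10a1* was wider than 1 log2 unit. The genotypes overlapped in all 8 members there, and 6.58% of all genes tested did not overlap.

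These values in cartilage rest on the library labelled *Scx*-/- replicate 1, whose *Scx* counts go against its label. Without it, 3 WT libraries were compared with 2, and all 8 members were lower in *Scx*-/-, by log2 differences of -3.81 to -0.58, with a median of -0.96 beside -0.11 over all genes. *Col9a3* was called (-3.81, SE 0.80, edgeR adjusted p = 0.00684), beside 0.0384% of all genes. This call rests on 19.5 and 29.0 CPM in the remaining *Scx*-/- libraries against 189.5 to 693 CPM in WT. The limit from its overlap with *Tcfl5* applies here too. Without this library only edgeR with TMM factors was run, and with all libraries DESeq2 gave *Col9a3* no adjusted p. The other 7 members had adjusted p of 0.339 to 0.867, with *Col10a1* at -1.38 (SE 0.39), *Acan* at -1.28 (SE 0.54), and *Col2a1* at -0.78 (SE 0.32). At an unadjusted p under 0.05 there were 4 of 8 members, beside 2.58% of all genes. The genotypes did not overlap in 4 members, *Col9a3*, *Col11a1*, *Acan*, and *Comp*, as 14.6% of all genes did not. The members vary together between libraries, so they are not separate evidence of a direction. The other 4 genes called in that fit were marrow and blood genes, all higher in *Scx*-/-: *Hba-a1*, *S100a8*, *S100a9*, and *Ngp* (log2 differences of 2.25 to 3.12).

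**Figure D4:**
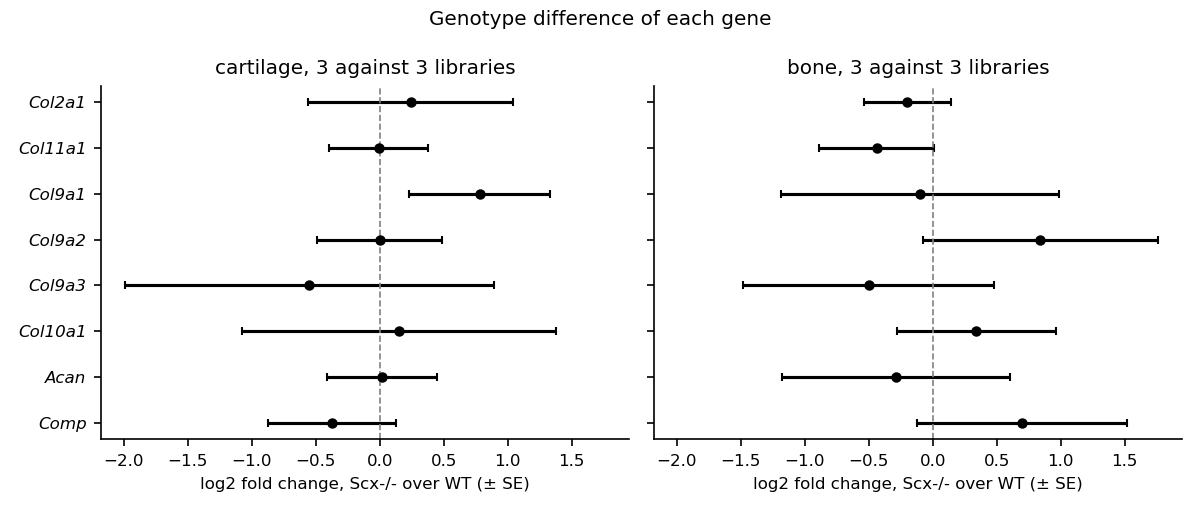
Log2 fold change of *Scx*-/- over WT (points, edgeR, with bars of 1 SE) for the 8 genes in cartilage and bone, 3 against 3 libraries as labelled. In cartilage the points lie between -0.55 and 0.78, and in bone between -0.50 and 0.84.

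The spread in cartilage was widest among the libraries labelled *Scx*-/-. The library labelled replicate 1, the one with 9 *Scx* counts, was the highest of all 6 cartilage libraries for 6 of 8 members, and replicate 3 was the lowest for 6 of 8. The set made up 2.11%, 0.691%, and 0.237% of the counts in the libraries labelled *Scx*-/- replicates 1, 2, and 3, against 1.03%, 1.12%, and 0.730% in the WT libraries. The *Scx*-/- mean was 1.01% ± 0.979 (SD, n = 3), and without replicate 1 it was 0.464%, against 0.959% ± 0.204 in WT. Marrow and blood markers (haemoglobins and neutrophil granule genes) took 0.390%, 3.42%, and 6.87% of the counts in the libraries labelled *Scx*-/- replicates 1, 2, and 3, and 0.853%, 0.603%, and 2.09% in the WT libraries. All 12 of these markers had counts in cartilage, and edgeR called the haemoglobin gene *Hba-a1* higher in *Scx*-/- (log2 difference 1.76, adjusted p = 0.047), 1 of 3 genes called there. The order of the 6 cartilage libraries by these markers was the exact reverse of their order by cartilage matrix genes, and the same was not seen in bone or for muscle or osteoblast markers. The part of this in the genotype comparison was not tested.

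**Figure D5:**
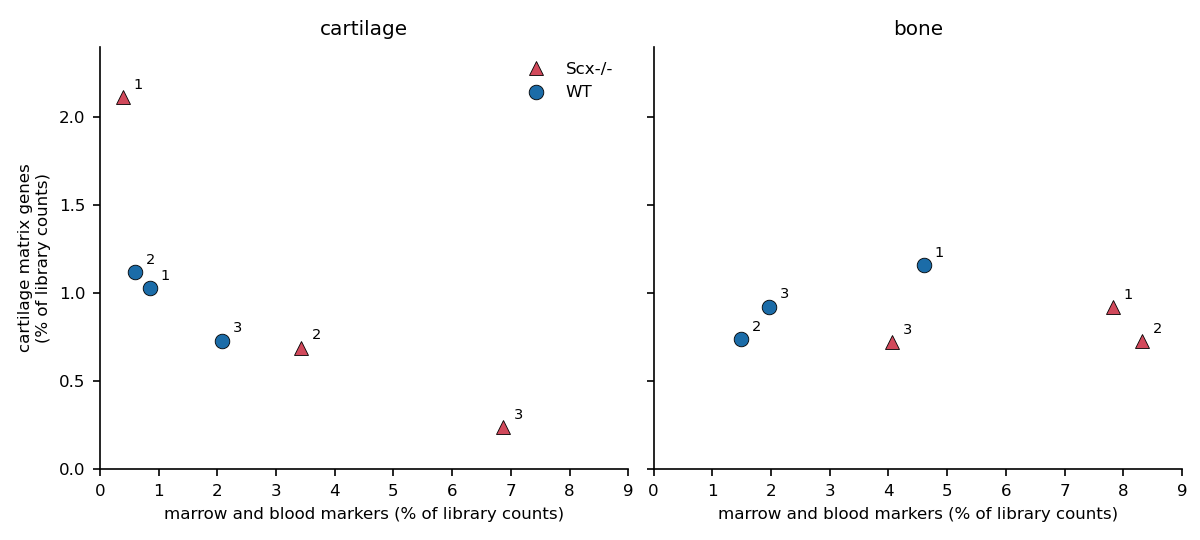
Percent of library counts in the cartilage matrix genes (vertical axis) against percent in marrow and blood markers (horizontal axis) for each cartilage and bone library; numbers are replicates. In cartilage the matrix share falls from 2.11% to 0.237% as the marker share goes from 0.390% to 6.87%, and in bone the libraries show no such order.

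In bone the log2 differences were -0.50 to 0.84, with a median of -0.15 beside 0.08. *Col11a1* and *Acan* had all 3 *Scx*-/- libraries below all 3 WT libraries, where 5.72% of all genes did not overlap. *Col11a1* differed by -0.44 (SE 0.45, edgeR adjusted p = 0.718) and *Acan* by -0.29 (SE 0.89, adjusted p = 0.941), both within the error. Marrow and blood markers took 4.61%, 1.5%, and 1.97% of WT and 7.83%, 8.33%, and 4.06% of *Scx*-/- bone libraries, with 11 of 12 markers detected. Tenocyte markers took 4.96% to 5.97% of WT and 3.78% to 4.47% of *Scx*-/- bone libraries, with 8 of 8 detected and *Col1a2* the most abundant, at 46410 ± 7185 CPM (SD). Osteoblast and osteocyte markers overlapped between the genotypes. The part of these lists was not tested.

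In muscle, 4 members had counts, and *Col2a1* and *Col11a1* met the study's thresholds with edgeR, as 4.54% of all genes did. The paper names *Col2a1* among the collagen genes downregulated in *Scx*-/- muscle, from DESeq2 at these thresholds. With DESeq2 as run here its log2 difference was -7.31, and 0 members reached an unadjusted p under 0.05 in any tissue. *Col2a1* had 6, 0, and 8 counts in the WT libraries and 0, 0, and 0 in the *Scx*-/- libraries. The groups overlapped at 0. Summed counts place WT at least 8.42-fold higher (floor of 3 counts over the *Scx*-/- group), or at least 4.92-fold without the shallow WT replicate 1 and 22.9-fold without WT replicate 2. Its edgeR adjusted p was 0.287, and with library totals in place of TMM factors 0.0138. *Col11a1* had 0, 14, and 26 counts in WT and 0, 6, and 0 in *Scx*-/-, with an edgeR log2 difference of -3.20 (SE 1.55, adjusted p = 0.771). In the same libraries the tendon proteoglycan *Fmod* was lower in *Scx*-/- (log2 difference -4.28, edgeR adjusted p = 0.0322). It was singled out after its value was seen, and the paper also names it as downregulated there. Tenocyte markers took 0.380% to 0.613% of the WT and 0.128% to 0.217% of the *Scx*-/- counts, with 7 of 8 markers detected. Osteoblast and osteocyte markers did not overlap either, at 0.402% to 0.694% in WT and 0.132% to 0.271% in *Scx*-/-, with 5 of 10 detected. The most abundant genes of these lists in muscle were the type I collagen genes *Col1a2* and *Col1a1*, at 3079 ± 1607 and 3571 ± 2010 CPM (SD, n = 6), which many connective tissue cells express. Marrow and blood markers took 0.127% to 0.622% of the WT and 0.375% to 2.06% of the *Scx*-/- counts, with 10 of 12 detected, and edgeR called the haemoglobin gene *Hbb-b1* higher in *Scx*-/- (log2 difference 2.39, adjusted p = 0.0322) and *Hbb-bs* lower (adjusted p = 1.27e-06), the latter from 389 counts in 1 WT library and 0 in the other 5. The part of these markers was not tested.

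Over the 13 tissues 3 pairs met these thresholds, beside 3.71% of all tests. The third was *Col2a1* in hippocampus, where 3.91% of all genes met them. It had 7, 0, and 1 counts in WT and none in *Scx*-/- (edgeR adjusted p = 0.762), so that nearly all of its WT counts came from replicate 1. Outside cartilage and bone, the genotypes did not overlap in 4 pairs, each on 4 to 16 counts in all: the *Scx*-/- libraries lay below WT in *Col2a1* in adipose (7.87% of all genes did not overlap there) and above it in cortex (7.8%), and in *Col11a1* they lay above WT in hippocampus (9.17%) and below it in stomach (7.91%). These pairs had an edgeR adjusted p of 0.762 to 0.848.

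Whether the genotype effect differs between tissues was tested as an interaction. Between cartilage and bone no member was called with edgeR (0 at an unadjusted p under 0.05, as 5.59% of all genes were, and 0 with DESeq2 at an adjusted p under 0.05), and 0% of all genes passed the adjusted p. Without the cartilage library labelled *Scx*-/- replicate 1 there was again no call, with 2 of 8 members at an unadjusted p under 0.05 beside 4.66% of all genes. In the comparisons with muscle, *Col9a1*, *Col9a3*, *Col10a1*, and *Acan* were at 0 there and had no genotype effect to compare, so that 4 members remained. Between bone and muscle *Col2a1* was the only gene of 15643 called (0.00639%), with a difference of 6.12 in log2 fold change (SE 1.11, adjusted p = 0.00479). This rests on the 14 muscle counts above, with *Scx*-/- muscle at 0, so that its size depends on the prior count of the fit, and it was lost with RLE factors, library totals, filterByExpr, and DESeq2 (adjusted p = 0.51 to 0.848). Between cartilage and muscle 0.0188% of genes and none of the 4 members were called with TMM factors, and *Col11a1* (3.31, SE 0.91, adjusted p = 0.376) had an adjusted p of 0.0428 with RLE factors and 0.0442 with library totals. Without the cartilage library labelled *Scx*-/- replicate 1 no member was called, beside 0.00634% of genes, and *Col11a1* was at 2.42 (adjusted p = 0.894). It was also called without WT replicate 1 or without *Scx*-/- replicate 2 of muscle (lowest adjusted p = 0.00344), and *Col2a1* was called without WT replicate 2 of muscle (adjusted p = 2.02e-08).

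The members were alike in pattern over the 32 groups of tissue and genotype, with r = 0.739 to 0.967 over 28 pairs (median 0.866; log2(CPM + 1), Pearson). Most groups share values near 0, so this describes the contrast of bone and cartilage with the rest. *Col9a1* and *Acan* were the closest pair. Among the 15674 genes with at least 50 counts that were compared, members left out, *Matn3*, which encodes another matrilin, was nearest to *Col9a1* (r = 0.984) and *Col10a1* (0.955). *3110079O15Rik*, a former symbol of the cartilage proteoglycan gene *Snorc*, was nearest to *Acan* (0.965) and *Col11a1* (0.887). *Lect1* was nearest to *Col9a2* (0.949) and *Col9a3* (0.937), *Mepe*, an osteocyte gene, to *Col2a1* (0.936), and *Ucma*, a growth plate gene, to *Comp* (0.912). By Spearman's rho the nearest gene stayed *Matn3* for *Col9a1* and *Lect1* for *Col9a3* and became another one for the other 6 members, at rho of 0.621 to 0.826, so those names depend on the measure. With Pearson's r, the 24 places of the 3 nearest genes to each of 8 members were taken by 10 genes: those above, the bone sialoprotein *Ibsp*, *Hapln1*, *Mmp13*, *Runx2*, and the citrate transporter *Slc13a5*.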

How the data were processed

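Counts per gene symbol were used as deposited: whole numbers that the authors made with Bowtie2 at default parameters on mm10 and with HTSeq, without normalization. For tool versions, annotation, strand setting, and molecular identifiers, the sources used here state nothing. The paper calls the libraries 3′-end enriched and the record Smart-seq2 based, so levels were not compared between genes per length. Depth was 11244 to 1658192 counts per library. CPM was the count divided by the library total. A gene at 0 allows up to 3 counts of the summed total.

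Tests were run across all genes with edgeR 4.0.16 in R 4.3.3 (TMM, glmQLFit with robust estimation, glmQLFTest, Benjamini-Hochberg), after genes at 0 in all libraries of a fit were removed: genotype within each tissue, tissue pairs with genotype as a term, and the interaction. Alternatives were RLE factors, library totals, filterByExpr, DESeq2 1.42.0, a replicate block, and each library left out. The SE of an edgeR log2 difference was its absolute size divided by the square root of the F statistic. Where a group is at 0, this SE also depends on the prior count. In DESeq2 genes with an adjusted p of NA stayed NA. The scripts were tested on simulated data. Python 3.11.15 with pandas 2.3.3, scipy 1.17.1, and matplotlib 3.10.9 gave levels, intervals, and figures, and positions come from GENCODE and RefSeq on GRCm38.

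The members and gene lists were chosen with earlier results of these data known. Named genes are all members, *Scx*, the 3 genes most like each member, the 3 most abundant genes of each list in cartilage, and genes of the first 4 lists called at an adjusted p under 0.05, not all of which are printed. Lists of tenocyte, marrow and blood, osteoblast, muscle, and epidermis markers served as levels beside results. Epidermis markers stayed at 0% to 0.00658% of the counts in cartilage, bone, and muscle.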

Additional observations from a re-analysis of the deposited data

Results flagged for a closer look

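*Col9a1* in the cartilage library labelled *Scx*-/- replicate 1 stood far from the other 5 cartilage libraries, at 715 CPM, with a gap of 0.718 of the range of the 6 libraries. Of 16 groups of 6 libraries examined this was the only one, and chance alone gives about 1 in 20. The same library was the highest for 6 of 8 members. It alone of the 48 libraries labelled *Scx*-/- held *Scx* counts (9), which goes against its label.

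*Col2a1* differed between bone and muscle in its genotype effect, by 6.12 on the log2 scale in edgeR's interaction test, from 14 counts in WT muscle and 0 in *Scx*-/- muscle. Leaving out each of the 12 libraries in turn, edgeR called it in 6 fits and lost it in 6: without WT replicate 1 or 3 of muscle, without any 1 of the 3 *Scx*-/- muscle libraries, and without *Scx*-/- replicate 1 of bone.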

How the results depend on the processing

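The number of members highest in cartilage was 6, and 3 with medians of libraries. It was 7 with TMM factors, 7 with DESeq2 size factors, and 4 with 86 libraries thinned to 57359 counts. Leaving out replicate 1, 2, or 3 gave 4 to 7. The share of the set was 0.986% in cartilage (0.694% to 1.24% with replicates left out) and 0.865% in bone (0.778% to 0.930%). Genotype calls at an adjusted p under 0.05 went from 0 to 1 with library totals and were 0 to 1 with libraries left out. At the study's thresholds they were 3, and 0 with filterByExpr and with DESeq2, and 2 to 6 with libraries left out. For cartilage over bone, 0 members were called, 2 with RLE factors, 2 with library totals, 1 with filterByExpr, 1 with DESeq2, and 0 to 2 with libraries left out. The split of all genes called was 151 higher and 27 lower with TMM factors, 75 and 48 with RLE factors, and 75 and 50 with library totals. Cartilage over muscle gave 8 calls, and 7 to 8 with libraries left out, where all genes split into 173 higher and 83 lower with TMM factors and 269 and 46 with library totals. Bone over muscle gave 8 in each left-out fit, with all genes at 277 higher and 433 lower with TMM factors and 599 and 202 with library totals. The interaction of cartilage and muscle went from 0 to 1 with RLE factors and with library totals (0 to 1 with libraries left out). That of bone and muscle went from 1 to 0 with RLE factors, library totals, filterByExpr, and DESeq2 (0 to 1 with libraries left out), and that of cartilage and bone stayed at 0 with libraries left out. Members with a gene at r over 0.9 were 7, 0 by Spearman's rho, 2 without bone, cartilage, and muscle, and 5 to 7 with replicates left out. The causes of these changes were not tested, apart from filterByExpr, which tests fewer genes.

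With the replicate number as a block, 0 members were called between genotypes, 2 pairs met the study's thresholds, and 1 member (*Col10a1*) was called between cartilage and bone, 7 between cartilage and muscle, and 7 between bone and muscle. The interaction of bone and muscle kept 1 call. Deviations from the group mean had r of -0.192 to 0.054 between samples with the same number. With few and shallow libraries per group, this cannot exclude a shared mouse or batch.

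Of 891 alternative values of single members, 856 stayed on their side of the threshold, 18 lost a call, 17 gained one, and none turned a called direction. Of the same values, 73 changed sign with no call on either side. Among the cartilage, bone, and muscle libraries, depth limits WT replicate 1 of muscle (30409 counts) and replicate 3 of either genotype in bone (47131 and 42272) most.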
